A study of Mus musculus with 8 samples.

Results

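The genes described here are the fibroblast growth factor (FGF) ligands, the FGF receptors and the genes that FGF signalling switches on to limit itself, 34 genes in all. They were chosen by symbol and not by a cutoff on measured values, though with earlier results of these data known. They comprise 22 ligand genes, 4 receptor genes and 8 feedback targets (Spry1, Spry2, Spry4, Spred1, Spred2, Dusp6, Etv4 and Etv5), and all 34 symbols were found among the 36808 genes of the table. In at least 1 library, 28 of the 34 reached 1 FPKM (fragments per gene, adjusted for the length of the transcript and the size of the library), compared with 18538 of all genes. The 28 were 16 ligands, the 4 receptors and the 8 feedback targets. Fgfr1 has a further row at the same locus, ENSMUSG00000091895, at 0.409 to 2.14 FPKM, and the values given are those of ENSMUSG00000031565.

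RNA-seq libraries were made from mouse embryonic stem cells (ESCs) and from cells at day 5 of directed differentiation toward spinal motor neurons (SMNs), to ask how Polycomb repressive complex 2 (PRC2), the enzyme that places H3K27me3, shapes gene expression as cells commit to a lineage. Wild-type E14 cells (129/Ola background) gave an ESC and a day 5 library. Suz12delta cells (C57/BL6), in which the PRC2 subunit SUZ12 is truncated, and Eednull cells (BALB/cR1), which carry a point mutation in Eed, also gave 1 of each, and both lines have lost nearly all H3K27me3. Suz12GT cells (129/Ola), in which a gene trap fuses SUZ12 to β-galactosidase and part of the H3K27me3 remains, gave a day 5 library, and CJ7 cells (129/S), a further wild-type line, gave an ESC library. Suz12GT ESCs were not analysed here. All ESCs were grown with serum and LIF on irradiated mouse embryonic fibroblasts, which a brief plating step was meant to remove. Each condition had 1 library, so no difference given here has a replicate check and no test was possible. Suz12GT shares its background with E14, whereas for Suz12delta, Eednull and CJ7 the line, the strain and the genotype cannot be told apart. CJ7 is labelled as a batch control for another library, which the column names identify as Eednull ESCs, so values of Eednull ESCs are given against CJ7 as well as against E14, and the change of Eednull cells to day 5 crosses that batch.

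FGF ligands bind receptor tyrosine kinases together with heparan sulfate, and the receptors act through the RAS-ERK chain. ERK activity induces the ETS factors Etv4 and Etv5 and, with them, inhibitors of the same chain, the Sprouty and Spred proteins and the ERK phosphatase Dusp6, so that the levels of these genes are widely read as a record of recent ERK activity. In ESCs, Fgf4 made by the cells themselves drives ERK and readies them to leave pluripotency, and in the embryo FGF from the caudal end holds spinal cord progenitors back from neuronal differentiation.

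The values in the table were used as deposited. Their sums ran from 389165 to 797748 FPKM per library, and read numbers were not given. Suz12, the gene altered in the Suz12 lines, was at 41.3 FPKM in E14 and 6.21 in Suz12delta ESCs. At day 5 it was at 16.2, 10.3 and 11.6 in E14, Suz12GT and Suz12delta cells, so Suz12delta was nearer to E14 at day 5 than in ESCs. Fragments of a trapped or truncated transcript can count at both times, and their part in these levels was not tested. Eed was at 32.7 to 50.9 FPKM in E14, CJ7 and Eednull ESCs, and a point mutation need not lower its RNA. Markers of spinal motor neurons and their progenitors (Pax6, Olig2, Nkx6-1, Neurog2, Isl1, Isl2, Mnx1, Lhx3 and Chat) summed to 156 FPKM in E14 and 129 in Suz12GT day 5 cells, but to 22.3 in Suz12delta and 21.6 in Eednull day 5 cells, where Chat, Neurog2 and Olig2 were near 0. Values are listed below in a fixed order. For ESCs this is E14, CJ7, Suz12delta and Eednull, and for day 5 cells it is E14, Suz12GT, Suz12delta and Eednull. A gene was said to rise or fall when it differed at least 2-fold between the libraries compared, on the scale of log2(FPKM + 0.1), a scale on which low genes appear to change less than they did. Only genes that reached 0.1 FPKM in either library were compared. In such bulk samples, fewer cells of a type and less RNA per cell cannot be told apart.

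Promoter sequence is shown for 6 genes described below. Windows from 250 bases before to 50 bases after the transcription start were used for 25 of the 34 genes. Each of their 33 windows matched NCBI build 37 exactly once. The other genes, among them Spry4 and Fgf1, were left out of these counts. The set of all windows given beside them was not limited in the same way, so it is a rough background only. CpG-rich windows, with a ratio of observed to expected CpG above 0.6 and GC above 50%, made up 7 of 7 windows of the feedback targets (6 genes), 3 of 4 of the receptors and 12 of 22 of the ligands, compared with 33.3% of all 32851 windows. The 250 bases before the start are printed for 3 feedback targets that fell together in E14 cells, and for Fgf4 and Fgf7, which fell in each line followed, and Fgf5, which rose in Suz12delta cells. The sequences run 5′ to 3′ on the strand of the gene, and capitals mark CpG dinucleotides.
Dusp6, chr10:98725615-98725864, plus strand: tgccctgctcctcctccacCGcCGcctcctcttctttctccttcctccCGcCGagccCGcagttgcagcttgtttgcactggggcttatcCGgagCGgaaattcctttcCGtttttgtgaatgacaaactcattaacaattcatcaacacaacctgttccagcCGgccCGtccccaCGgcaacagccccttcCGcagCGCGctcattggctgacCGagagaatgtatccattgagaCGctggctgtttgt
Spry1, chr3:37538619-37538868, plus strand: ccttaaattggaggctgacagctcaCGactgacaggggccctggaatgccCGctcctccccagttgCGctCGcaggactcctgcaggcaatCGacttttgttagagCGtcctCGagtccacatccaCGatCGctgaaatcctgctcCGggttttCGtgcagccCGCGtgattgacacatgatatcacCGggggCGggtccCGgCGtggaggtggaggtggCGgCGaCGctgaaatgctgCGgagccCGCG
Spry2, chr14:106296037-106296286, minus strand: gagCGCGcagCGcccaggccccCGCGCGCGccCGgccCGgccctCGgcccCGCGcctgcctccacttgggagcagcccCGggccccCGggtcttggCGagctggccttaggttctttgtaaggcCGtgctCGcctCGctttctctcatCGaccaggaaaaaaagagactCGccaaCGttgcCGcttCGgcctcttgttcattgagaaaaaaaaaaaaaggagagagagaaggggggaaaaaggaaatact
Fgf4, chr7:152047041-152047290, plus strand: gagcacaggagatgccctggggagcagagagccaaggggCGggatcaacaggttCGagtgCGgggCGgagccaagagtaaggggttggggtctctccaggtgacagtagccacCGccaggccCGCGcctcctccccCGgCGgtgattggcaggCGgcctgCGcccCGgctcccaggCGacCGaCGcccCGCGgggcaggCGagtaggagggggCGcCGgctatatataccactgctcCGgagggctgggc
Fgf5, chr5:98682953-98683202, plus strand: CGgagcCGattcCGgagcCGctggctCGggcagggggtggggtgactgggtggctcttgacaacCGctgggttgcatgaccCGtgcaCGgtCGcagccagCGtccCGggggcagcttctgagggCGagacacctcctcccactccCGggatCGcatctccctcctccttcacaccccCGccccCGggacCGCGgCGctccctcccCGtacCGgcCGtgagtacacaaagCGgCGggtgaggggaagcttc
Fgf7, chr2:125860144-125860393, plus strand: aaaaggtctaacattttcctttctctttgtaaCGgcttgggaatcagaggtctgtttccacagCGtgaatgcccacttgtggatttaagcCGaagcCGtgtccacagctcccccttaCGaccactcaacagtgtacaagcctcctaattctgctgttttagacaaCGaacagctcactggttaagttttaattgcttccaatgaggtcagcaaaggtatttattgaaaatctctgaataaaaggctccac
The CpG count in these 250 bases was 16 for Dusp6, 23 for Spry1, 23 for Spry2, 21 for Fgf4, 24 for Fgf5 and 6 for Fgf7. Fgf7 was the only one of these 6 genes whose window was not CpG-rich, as its GC content was 45.7%. The letters CCGGAAG, 1 strict form of the sites bound by ETS factors such as Etv4 and Etv5, occurred on either strand in none of the 33 windows. They occurred in 8.86% of all windows. Shorter or other forms of ETS sites were not counted, so these windows may still hold them. The letters TGANTCA, bound by AP-1, occurred in 2 ligand windows (Fgf12 and Fgf13), compared with 7.81% of all windows.

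**Figure D1:**
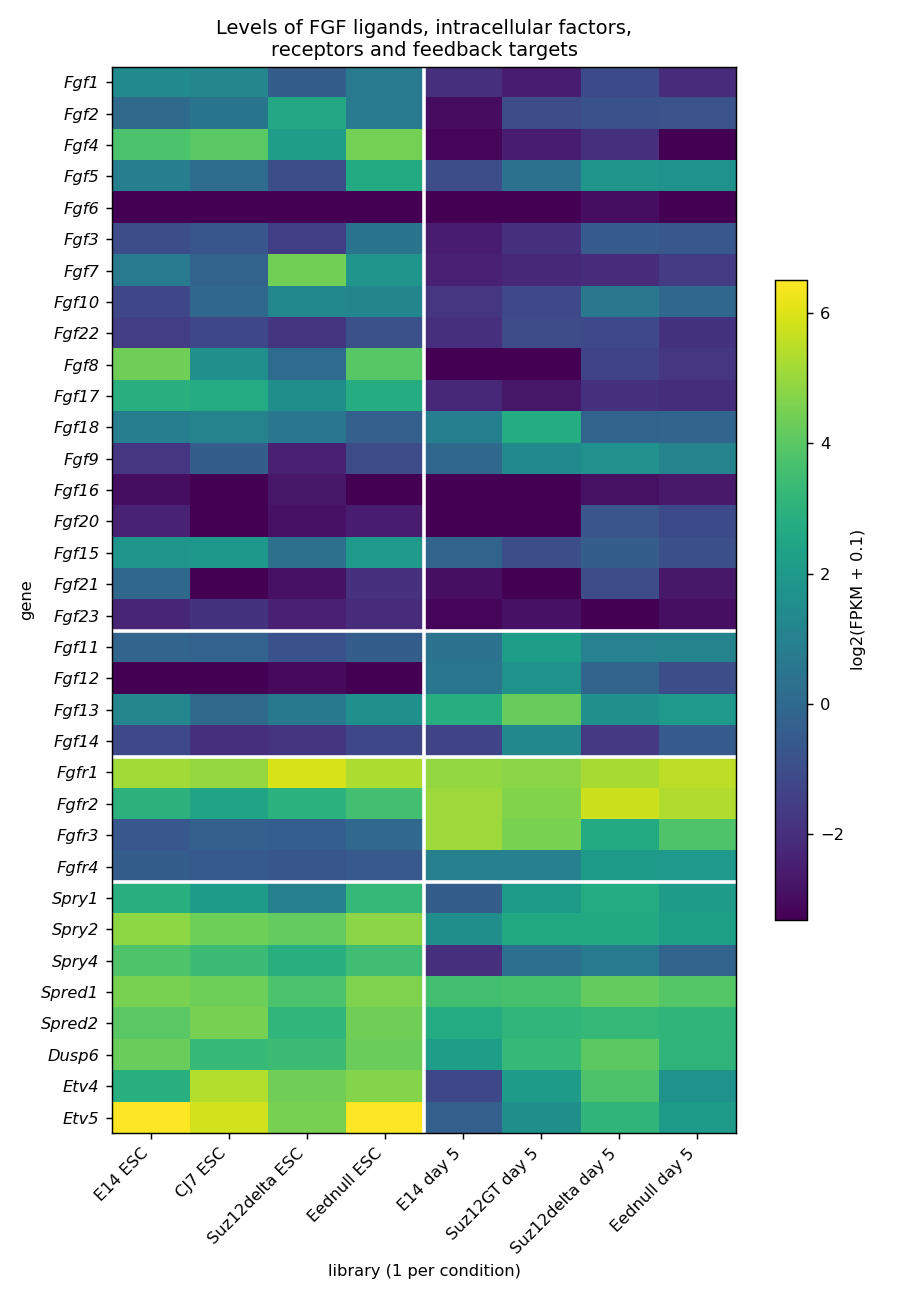
Levels of the 34 FGF genes as log2(FPKM + 0.1), by colour, with genes in rows and the 8 libraries in columns. White lines set off signalling ligands, intracellular factors, receptors and feedback targets from top to bottom, and ESCs from day 5 cells. The ligands bright in E14 ESCs, such as Fgf4 (13.1 FPKM) and Fgf8 (20.5 FPKM), were dark in every day 5 library.

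Between E14 ESCs and E14 day 5 cells the FGF genes differed by role: 10 of the 15 signalling ligands compared and all 8 feedback targets fell, while 3 of 4 receptors rose. Of the other signalling ligands compared, 1 (Fgf9) rose and 4 stayed within 2-fold. Of 31 genes compared, 6 were at least 2-fold higher at day 5 (all genes, 18.3%) and 18 were at least 2-fold lower (all genes, 25.8%). The median log2 ratio was -2.06 over the 15 signalling ligands compared, 1.74 over the 4 receptors and -3.29 over the 8 feedback targets, beside -0.20 over all 21563 genes compared. In Eednull cells the same change gave 7 higher (all genes, 18.4%) and 18 lower (all genes, 24.8%) of 32 compared. In Suz12delta cells it gave 11 higher (all genes, 26.9%) and 8 lower (all genes, 12.6%) of 31 compared, a split that depended on scaling. Setting the libraries to the same 75th percentile gave 10 higher (all genes, 17.7%) and 15 lower (all genes, 17.2%), and moved the median over all genes from 0.43 to 0.06. These 3 changes share no library. In all 3 lines 8 of the FGF genes fell, namely Fgf2, Fgf4, Fgf7, Fgf8, Fgf17, Spry2, Spry4 and Etv5, and 5 rose, namely Fgf9, Fgf12, Fgfr2, Fgfr3 and Fgfr4. Of the 19781 genes compared in all 3 lines, 4.95% fell and 5.94% rose in each of them. Some of these calls rest on a listed 0, which can be a failed estimate. Fgf12 was listed at 0 in E14 and Eednull ESCs, Fgf8 in E14 day 5 cells and Fgf4 in Eednull day 5 cells.

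Fgf4 and Fgf8 were the leading signalling ligands of E14 ESCs, and together with Fgf17 they fell in E14, Suz12delta and Eednull cells, the lines with a library at both times. Fgf4, the ESC ligand named above, lies at chr7:152047291-152051148 on the plus strand of NCBI build 37, between Fgf3 and Fgf15. Fgf4 was at 13.1, 16.0, 4.39 and 21.8 FPKM in the ESCs, and at 0.00968, 0.0683 and 0.156 FPKM in E14, Suz12GT and Suz12delta day 5 cells and listed at 0 in Eednull day 5 cells. It was thus lowest in Suz12delta among the ESCs and under 0.2 FPKM at day 5 in each line. Fgf8, a ligand of the caudal embryo and of signalling centres in the brain (chr19:45811288-45817405, minus strand), was at 20.5, 2.93, 0.974 and 15.6 FPKM in the ESCs. At day 5 it was listed at 0 in E14 and Suz12GT cells and was at 0.296 and 0.195 FPKM in Suz12delta and Eednull cells. A listed 0 in this table can be a failed estimate, so the falls of Fgf8 in E14 and of Fgf4 in Eednull cells rest on values that may not be levels. Fgf8 also differed between the wild-type lines, with E14 and Eednull ESCs high and CJ7 and Suz12delta ESCs low. Fgf17, of the same subfamily as Fgf8, was at 7.49, 6.58, 2.87 and 6.75 FPKM in the ESCs and between 0.0545 and 0.163 FPKM at day 5, with values of 0.121, 0.0545, 0.163 and 0.147.

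Fgf15 and Fgf1 were further ESC ligands. Fgf15, which acts as a hormone on bile acid synthesis in the adult and as a local signal in the embryo, was at 3.54, 3.67, 1.15 and 3.76 FPKM in the ESCs and at 0.770, 0.411, 0.648 and 0.434 FPKM at day 5. It fell in E14 and Eednull cells, by log2 ratios of -2.06 and -2.85, and had a ratio of -0.74 in Suz12delta cells, which started lower. Fgf1, a ligand for all FGF receptors, was at 2.59, 2.26, 0.650 and 1.62 FPKM in the ESCs and at 0.157, 0.0669, 0.363 and 0.135 FPKM at day 5. Summed over the 18 signalling ligands, FPKM was 55.5, 39.2, 42.1 and 66.3 in the ESCs and 4.76, 12.4, 12.8 and 9.70 at day 5, and the make-up changed as well as the sum. Fgf8 (36.9%) and Fgf4 (23.6%) led in E14 ESCs, Fgf4 (40.9%) in CJ7 and (32.9%) in Eednull ESCs, and Fgf7 (50.5%) in Suz12delta ESCs.

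**Figure D2:**
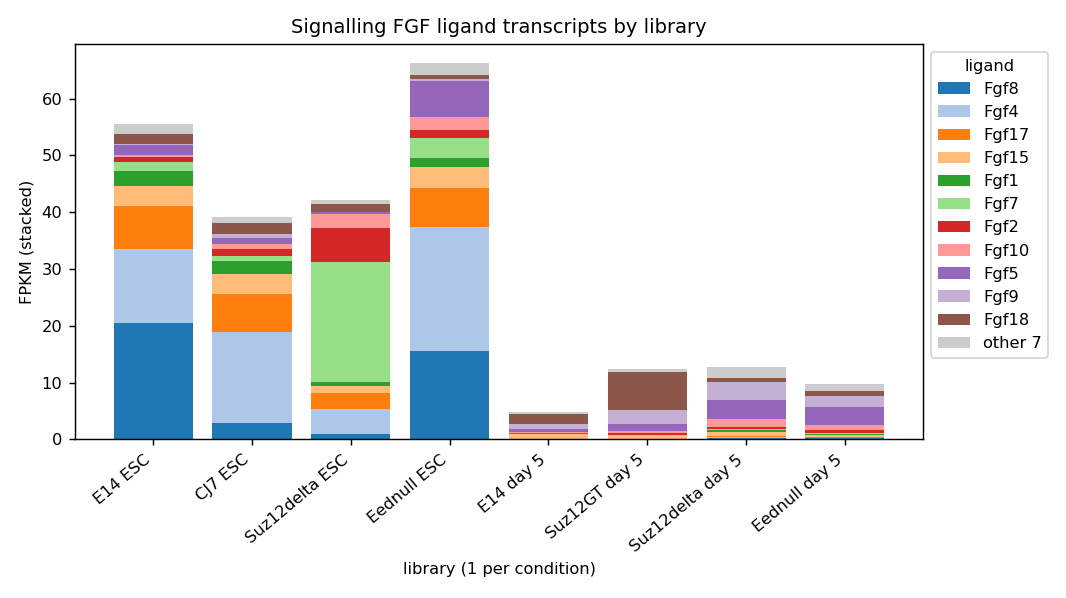
Stacked FPKM of the 18 signalling ligands in the 8 libraries, with 11 ligands coloured and the other 7 in grey. The sums fell from 55.5 in E14 ESCs to 4.76 in E14 day 5 cells, and Fgf7 filled 50.5% of the Suz12delta ESC bar. At day 5 Fgf18 led in E14 (37.9%) and Suz12GT cells (54.0%), and Fgf5 led in Suz12delta (26.3%) and Eednull cells (32.0%).

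The ligands Fgf2, Fgf7 and Fgf10 were higher in Suz12delta than in E14 ESCs, while the share of FGF genes that were higher was not above that of all genes. In Suz12delta ESCs against E14 ESCs, 4 of 30 FGF genes were at least 2-fold higher (all genes, 18%), namely Fgf2, Fgf7, Fgf10 and Etv4, and 9 were at least 2-fold lower (all genes, 22.8%), namely Fgf1, Fgf4, Fgf5, Fgf8, Fgf15, Fgf17, Fgf21, Spry1 and Etv5. Against CJ7 ESCs, 3 were higher (all genes, 21.1%) and 10 lower (all genes, 24%). Scaling to the same 75th percentile gave 5 higher and 8 lower against E14, where the median over all genes moved from -0.28 to 0.07 and the shares of all genes to 23.5% higher and 14% lower. Fgf7, a ligand that mesenchyme sends to epithelia (chr2:125860394-125916921, plus strand), was at 1.62, 0.772, 21.3 and 3.41 FPKM in the ESCs and at 0.0866, 0.117, 0.137 and 0.239 FPKM at day 5. Suz12delta ESCs stood alone for Fgf7, with a log2 ratio of 3.63 to E14 and 4.62 to CJ7. Fgf10, the ligand of limb and lung buds, was at 0.322, 0.914, 2.34 and 2.19 FPKM in the ESCs and at 0.197, 0.345, 1.43 and 0.884 FPKM at day 5. Fgf2, a ligand that fibroblasts make and that is added to many cell cultures, was at 0.961, 1.3, 5.95 and 1.54 FPKM in the ESCs and at 0.0266, 0.371, 0.455 and 0.479 FPKM at day 5. Fgf2 and Fgf7 were thus highest in Suz12delta ESCs, while Fgf10 was high in Suz12delta and Eednull ESCs alike. The annotated Fgf2 gene overlaps Nudt6 on the opposite strand and Bbs12, and the sources used here give no strand setting, so fragments of these genes could be shared.

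Fibroblast markers, like Fgf2 and Fgf7, were highest in Suz12delta among the ESCs, whereas Fgf10 was alike in Suz12delta and Eednull ESCs. The 12 markers listed for fibroblasts (Col1a1, Col1a2, Col3a1, Col6a1, Thy1, Postn, Dcn, Lum, Fap, Pdgfrb, Twist2 and Loxl1) summed to 95.8, 118, 556 and 265 FPKM in the ESCs. In Suz12delta ESCs 12 of 12 (all genes, 18%) and in Eednull ESCs 4 of 12 (all genes, 22.4%) were at least 2-fold higher than in E14 ESCs. In Suz12delta day 5 cells the markers summed to 115 FPKM, with Fgf7 at 0.137 and Fgf2 at 0.455 FPKM. None of the 12 was listed at 0 in any ESC library, and Col1a2 was at 27.4 FPKM in E14 and 215 FPKM in Suz12delta ESCs. Feeder fibroblasts were used for all ESCs, and their part in the levels of Fgf7, Fgf2 and Fgf10 was not tested.

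In Eednull ESCs 5 of 30 FGF genes were higher than in E14 ESCs (all genes, 22.4%), namely Fgf3, Fgf5, Fgf7, Fgf10 and Etv4, and 2 were lower (all genes, 11.9%), Fgf18 and Fgf21. Against CJ7, the comparison within the labelled batch, 10 of 30 were higher (all genes, 20.5%) and 1 was lower (all genes, 10.7%), and Etv4 was no longer among the higher genes. All 3 comparisons with E14 ESCs use the same E14 library. CJ7 itself had 3 of 30 genes higher than E14 (all genes, 15.7%), namely Fgf9, Fgf10 and Etv4, and 3 lower (all genes, 14.7%), namely Fgf8, Fgf13 and Fgf21. Fgf5, the marker of primed pluripotent cells and the epiblast (chr5:98683203-98706049, plus strand), was at 1.74, 1.06, 0.420 and 6.38 FPKM in the ESCs and at 0.405, 1.2, 3.37 and 3.11 FPKM at day 5. Its highest level was thus in Eednull ESCs, and at day 5 it was higher in all mutant libraries than in E14. Fgf3, an embryonic ligand that neighbours Fgf4, was at 0.397, 0.517, 0.253 and 1.27 FPKM in the ESCs and at 0.0717, 0.162, 0.611 and 0.543 FPKM at day 5.

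Over differentiation, Fgf5 followed different courses in the lines. It fell in E14 cells by 1.87 and in Eednull cells by 1.01 on the log2 scale, and rose in Suz12delta cells with a log2 ratio of 2.74, where the ESC level was the lowest of the 4. Fgf3 did likewise at lower levels, with log2 ratios of -1.53 in E14, -1.09 in Eednull and 1.01 in Suz12delta cells. Fgf9, a ligand of gonad, lung and nervous tissue, rose in E14, Suz12delta and Eednull cells. It was at 0.192, 0.638, 0.0850 and 0.391 FPKM in the ESCs and at 0.912, 2.49, 3.09 and 2.03 FPKM at day 5. Fgf18, a relative of Fgf8, had no such change in E14 cells, with a log2 ratio of 0.04. It was at 1.75, 2.01, 1.37 and 0.711 FPKM in the ESCs and at 1.80, 6.72, 0.787 and 0.826 FPKM at day 5, high in Suz12GT and low in Suz12delta and Eednull day 5 cells.

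The 6 ligands under 1 FPKM in all libraries were Fgf6, Fgf16, Fgf20, Fgf21, Fgf22 and Fgf23. Fgf6 was listed at 0 in 7 of 8 libraries and at 0.0302 FPKM in Suz12delta day 5 cells. Fgf16 reached 0.0576 FPKM, Fgf23 0.169 and Fgf22 0.445 FPKM at most. Fgf20 was at 0.0930 FPKM or less in the ESCs and listed at 0 in E14 and Suz12GT day 5 cells, but was at 0.511 and 0.366 FPKM in Suz12delta and Eednull day 5 cells. Fgf21, a metabolic hormone, was at 0.867 FPKM in E14 ESCs, listed at 0 in CJ7 ESCs and at 0.0390 and 0.167 FPKM in Suz12delta and Eednull ESCs, and it reached 0.392 FPKM at day 5, in Suz12delta cells.

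At day 5 the summed level of signalling ligands, 4.76 FPKM in E14 cells, was higher in each mutant library. Fgf18 and Fgf9 led both in E14 (37.9% and 19.2%) and in Suz12GT cells (54.0% and 20.1%). In Suz12delta and Eednull cells Fgf5 and Fgf9 led. The comparisons of the 3 mutant lines share the E14 day 5 library, so their values are set side by side and are not independent. Suz12GT cells had 14 of 27 FGF genes higher than E14 (all genes, 16.8%) and 0 lower (all genes, 4.4%). Suz12delta cells had 16 of 31 higher (all genes, 26.6%) and 3 lower (all genes, 9.52%), the lower genes being Fgf13, Fgf18 and Fgfr3. Eednull cells had 12 of 29 higher (all genes, 21.6%) and 3 lower (all genes, 11.3%), the lower genes being Fgf12, Fgf18 and Fgfr3. Of the signalling ligands, Suz12GT cells had Fgf2, Fgf5, Fgf9 and Fgf18 higher. Eednull cells had Fgf2, Fgf3, Fgf5, Fgf8, Fgf9, Fgf10 and Fgf20 higher, and Suz12delta cells had these 7 and also Fgf4 and Fgf21. Fgf8 and Fgf20 are counted here although E14 lists them at 0. Most of these ligands were under 1 FPKM in each day 5 library, and with a pseudocount of 1 FPKM the counts of higher genes were 7, 8 and 4 in Suz12GT, Suz12delta and Eednull cells, where the shares of all genes were 4.95%, 11.7% and 9.11%.

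**Figure D3:**
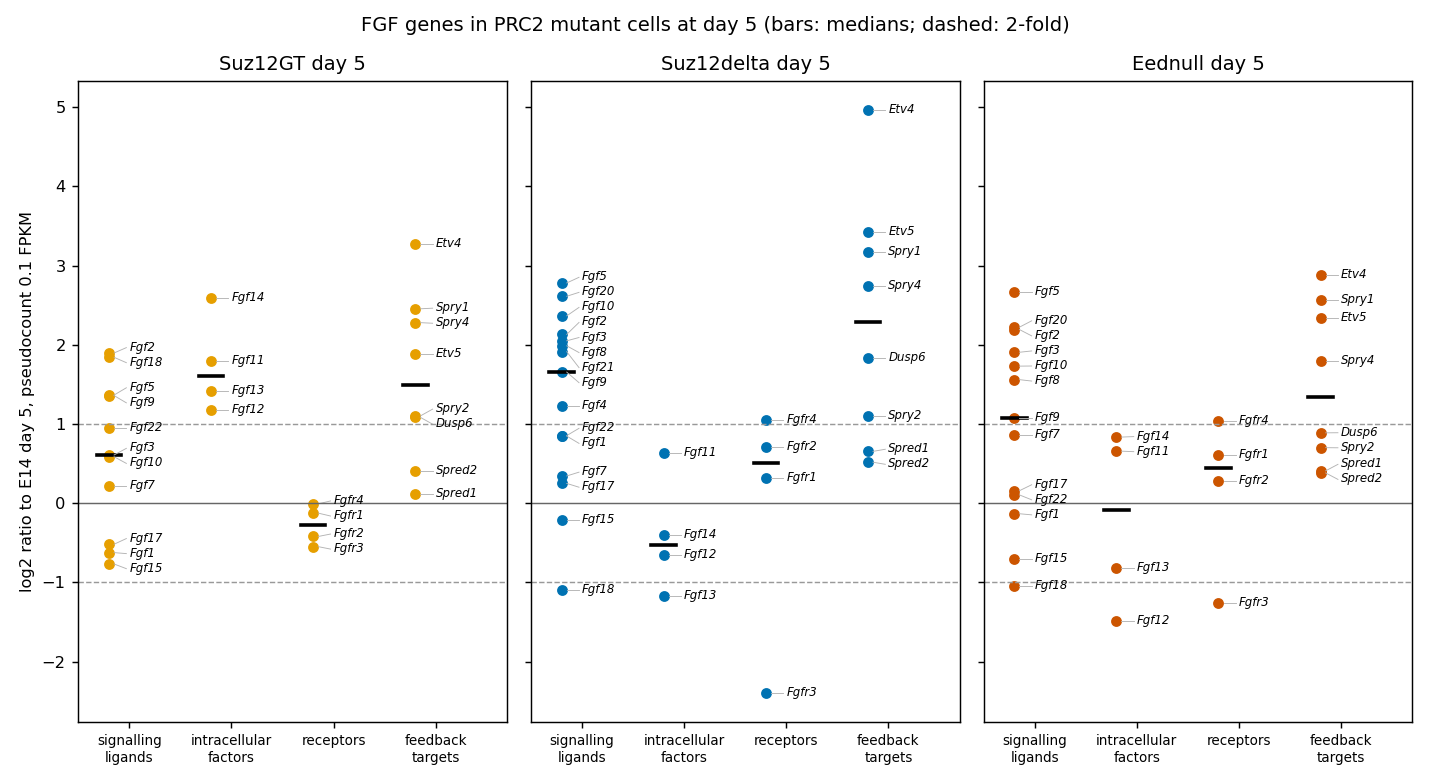
Log2 ratios of the FGF genes to E14 day 5 cells (pseudocount 0.1 FPKM) in Suz12GT, Suz12delta and Eednull day 5 cells, by role. Each point is a gene, black bars are medians, and dashed lines mark 2-fold. All feedback targets lay above 0 in each mutant, with medians of 1.49, 2.28 and 1.34, and the intracellular factors stood at a median of 1.61 in Suz12GT cells only, with -0.53 in Suz12delta and -0.08 in Eednull cells.

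The intracellular FGF homologous factors, Fgf11 to Fgf14, are FGF-like proteins of neurons that stay in the cell and bind voltage-gated sodium channels. All 4 were at least 2-fold higher in Suz12GT than in E14 day 5 cells (all genes, 16.8%). In Suz12delta cells 0 of 4 were higher (all genes, 26.6%) and 1, Fgf13, was lower (all genes, 9.52%). In Eednull cells 0 of 4 were higher (all genes, 21.6%) and 1, Fgf12, was lower (all genes, 11.3%). Fgf13 was at 2.23, 0.947, 1.46 and 2.97 FPKM in the ESCs and at 6.88, 18.5, 2.99 and 3.86 FPKM at day 5. Fgf12 was listed at 0 in E14, CJ7 and Eednull ESCs and was at 0.0175 FPKM in Suz12delta ESCs, against 1.34, 3.14, 0.812 and 0.414 FPKM at day 5. Both were highest in Suz12GT, intermediate in E14 and lowest in Suz12delta and Eednull. Fgf11 was at 0.826, 0.746, 0.455 and 0.649 FPKM in the ESCs and at 1.23, 4.51, 1.96 and 1.99 FPKM at day 5. Fgf14 was at 0.351, 0.152, 0.179 and 0.337 FPKM in the ESCs and at 0.305, 2.34, 0.207 and 0.622 FPKM at day 5. Summed over these 4 genes, FPKM at day 5 was 9.75, 28.5, 5.97 and 6.89. Beside this, 0 of the 9 spinal motor neuron markers were at least 2-fold higher (all genes, 16.8%) and 3 were lower (all genes, 4.4%) in Suz12GT than in E14 day 5 cells. The markers did not move together. Pax6, Olig2 and Neurog2 were the lower ones, and Lhx3, Mnx1 and Nkx6-1 were close to E14. Chat (7.61 in E14 and 10.8 in Suz12GT), Isl1 (18.1 and 22.8) and Isl2 (9.17 and 14.6) were above E14 by less than 2-fold. Over the 9 markers the sums were 129 FPKM in Suz12GT and 156 FPKM in E14 cells. The part of cell make-up in the levels of Fgf11 to Fgf14 was not tested.

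Receptor transcripts changed in kind over differentiation. Fgfr1, the main receptor of ESCs, was at 35.2, 31.0, 61.1 and 39.1 FPKM in the ESCs and at 30.1, 27.5, 37.5 and 45.8 FPKM at day 5. Its log2 ratio stayed within 2-fold in each of the comparisons, the largest being 0.98 in Suz12delta against CJ7 ESCs. Fgfr2, the receptor of Fgf7 and Fgf10 in epithelia and of further ligands in neural tissue, was at 7.81, 5.22, 7.70 and 11.8 FPKM in the ESCs and at 33.4, 25.0, 54.5 and 40.6 FPKM at day 5. Fgfr2 thus rose in E14, Suz12delta and Eednull cells, with log2 ratios of 2.08, 2.81 and 1.78, and was highest in Suz12delta day 5 cells. The annotated Fgfr2 gene, chr7:137305965-140315033 on the minus strand, is far longer than the receptor itself and overlaps many other genes, so its value can hold fragments of them. Fgfr4, a receptor found in endoderm and muscle, was at 0.653, 0.584, 0.516 and 0.568 FPKM in the ESCs and at 1.87, 1.86, 3.97 and 3.93 FPKM at day 5, with log2 ratios to E14 day 5 of 1.05 in Suz12delta and 1.03 in Eednull cells.

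Fgfr3, the receptor of spinal cord progenitors and astrocytes (chr5:34064373-34079716, plus strand), was the receptor with the largest differences. It was at 0.538, 0.715, 0.667 and 0.928 FPKM in the ESCs and at 33.8, 23.0, 6.35 and 14.1 FPKM at day 5. It rose in the lines with both times, with log2 ratios of 5.73 in E14, 3.07 in Suz12delta and 3.78 in Eednull cells, and ended lower than E14 day 5 by log2 ratios of -2.39 in Suz12delta and -1.26 in Eednull cells, with -0.55 in Suz12GT cells. In ESCs, Fgfr1 made up 79.6%, 82.6%, 87.3% and 74.6% of the summed receptor FPKM. In E14 day 5 cells Fgfr3, Fgfr2 and Fgfr1 made up 34.1%, 33.7% and 30.3%, while Fgfr3 was 29.8% in Suz12GT, 6.21% in Suz12delta and 13.5% in Eednull cells. The summed receptor FPKM at day 5 was 99.1, 77.4, 102 and 104, so the sums of Suz12delta and Eednull cells were close to that of E14 while the mix was not. The spinal motor neuron markers given above were also lower in sum in each mutant than in E14 day 5 cells. At least 2-fold lower were 9 of 9 in Suz12delta (all genes, 9.52%), 9 of 9 in Eednull (all genes, 11.3%) and 3 of 9 in Suz12GT cells (all genes, 4.4%). The part of cell make-up in the Fgfr3 levels was not tested.

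**Figure D4:**
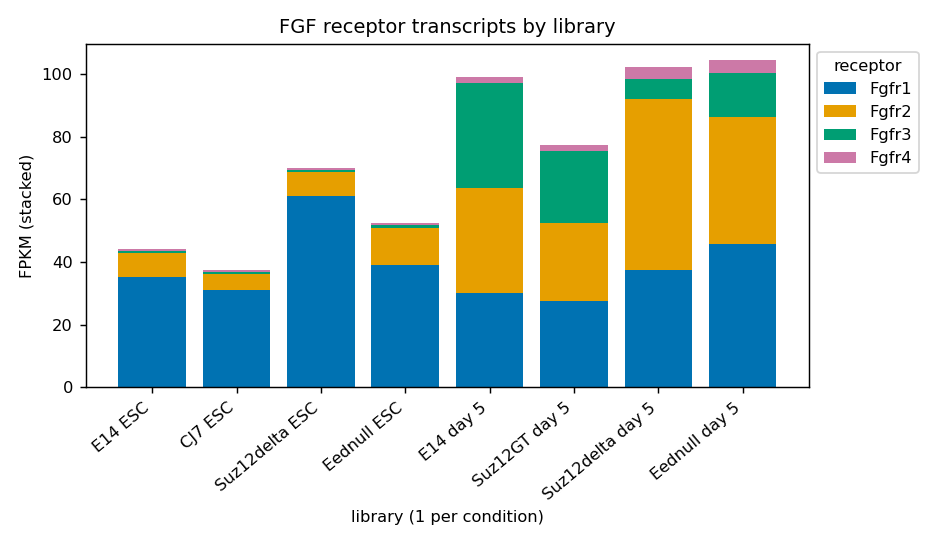
Stacked FPKM of Fgfr1, Fgfr2, Fgfr3 and Fgfr4 in the 8 libraries. Fgfr1 filled 74.6% to 87.3% of the ESC bars, and the Fgfr3 segment was 33.8 FPKM in E14 day 5 cells, 6.35 in Suz12delta and 14.1 in Eednull day 5 cells.

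The feedback targets fell over wild-type differentiation and stood higher in mutant than in E14 day 5 cells. All 8 fell in E14 cells (all genes, 25.8%), with a summed FPKM of 204 in ESCs and 27.1 at day 5. In Eednull cells 7 of 8 fell (all genes, 24.8%), with a median log2 ratio of -1.90 beside -0.08 over all genes. In Suz12delta cells 3 of 8 fell (all genes, 12.6%) and Spry1 rose (all genes, 26.9%), with a median of -0.26 beside 0.43 over all genes. Scaling the Suz12delta libraries to the same 75th percentile gave a median of -0.65 beside 0.06 over all genes. Against E14 day 5 cells, 6 of 8 were at least 2-fold higher in Suz12GT (all genes, 16.8%), 6 in Suz12delta (all genes, 26.6%) and 4 in Eednull cells (all genes, 21.6%), with medians of 1.49, 2.28 and 1.34 beside 0.13, 0.26 and 0.08 over all genes. In each of the 3 comparisons the other feedback targets also had log2 ratios above 0, as did 12794 of 20840, 14101 of 22069 and 11715 of 21442 of all genes compared. Summed FPKM of the feedback targets at day 5 was 27.1, 49.1, 80.2 and 49.0.

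Etv5, an ETS factor that ERK induces (chr16:22381382-22439792, minus strand), had the highest level of any FGF gene in E14 ESCs. It was at 89.1 FPKM in E14, 57.1 in CJ7, 22.2 in Suz12delta and 91.3 in Eednull ESCs. At day 5 it was at 0.714 FPKM in E14, 2.91 in Suz12GT, 8.65 in Suz12delta and 4.02 in Eednull cells. The day 5 level was thus 0.802% of the ESC level in E14, 39.0% in Suz12delta and 4.40% in Eednull cells, and the log2 ratio to E14 day 5 was 1.89, 3.43 and 2.34 in the 3 mutants. Etv4, its close relative (chr11:101631056-101646685, minus strand), differed among the ESC lines, with E14 the lowest. It was at 7.27 FPKM in E14, 42.0 in CJ7, 20.9 in Suz12delta and 25.9 in Eednull ESCs. Against E14 it was thus higher in Suz12delta and Eednull ESCs, with log2 ratios of 1.51 and 1.82, and against CJ7 it was lower, with -1.0 and -0.70. At day 5 Etv4 was at 0.340 FPKM in E14, 4.15 in Suz12GT, 13.6 in Suz12delta and 3.13 in Eednull cells, log2 ratios of 3.27, 4.96 and 2.88 to E14.

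The Sprouty genes encode membrane-linked inhibitors of receptor tyrosine kinase signalling. Spry4 was at 14, 10.7, 7.09 and 11.2 FPKM in the ESCs and at 0.151, 1.12, 1.57 and 0.772 FPKM at day 5. Spry1 (chr3:37538869-37543520, plus strand) was at 7.34, 4.08, 1.86 and 9.16 FPKM in the ESCs and at 0.641, 3.96, 6.59 and 4.28 FPKM at day 5. E14 had the lowest day 5 level of both, and Suz12delta was the line in which Spry1 rose, to 354% of its ESC level, from the lowest ESC level of the 4. Spry2 (chr14:106291166-106296036, minus strand) was at 28.3, 20.1, 17.5 and 27.8 FPKM in the ESCs and at 2.87, 6.27, 6.26 and 4.73 FPKM at day 5. It fell in all 3 lines followed over differentiation, and its log2 ratio to E14 day 5 was 1.10 in Suz12GT, 1.10 in Suz12delta and 0.70 in Eednull cells.

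Dusp6, a phosphatase that acts on ERK itself (chr10:98725865-98730122, plus strand), was at 19.2, 9.61, 10.5 and 19.4 FPKM in the ESCs and at 4.48, 9.60, 16.2 and 8.37 FPKM at day 5. It thus ended highest in Suz12delta cells, at 154% of their ESC level, compared with 23.3% in E14 and 43.2% in Eednull cells. The Spred genes, which encode inhibitors that act on the RAS-RAF step, had the smallest ratios to E14 day 5 cells in Suz12GT, Suz12delta and Eednull cells. Spred1 was at 23.1, 20.2, 13.3 and 24.2 FPKM in the ESCs and at 11.4, 12.4, 18 and 15.2 FPKM at day 5. Spred2 was at 16.1, 22.8, 8.79 and 20.8 FPKM in the ESCs and at 6.52, 8.68, 9.37 and 8.53 FPKM at day 5. Their log2 ratios to E14 day 5 lay between 0.12 and 0.65, none at 2-fold. Among the day 5 libraries, Suz12delta had the highest level of 7 of the 8 feedback targets, the exception being Spry2, which was at 6.27 in Suz12GT and 6.26 in Suz12delta.

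**Figure D5:**
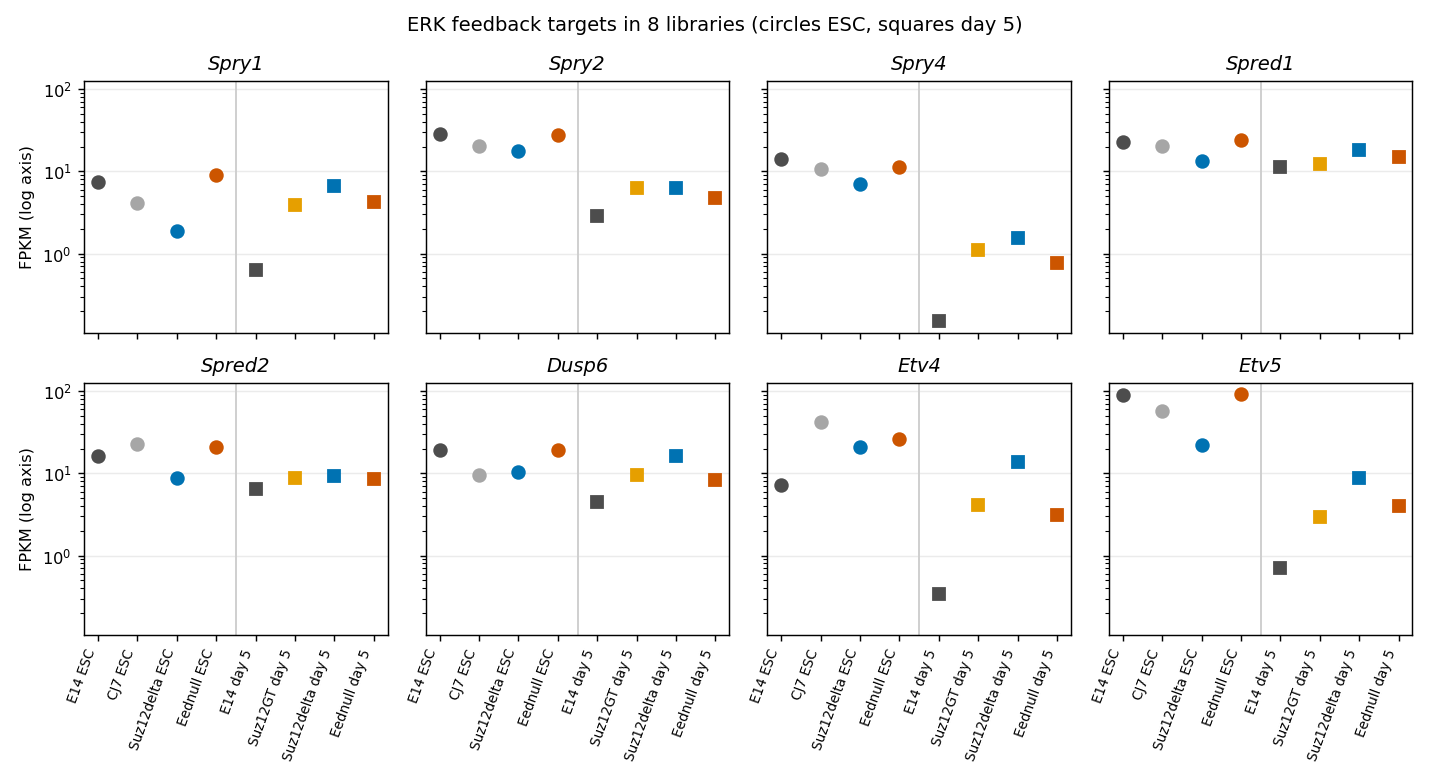
FPKM of the 8 feedback targets in the 8 libraries on a log axis, 1 panel a gene, with circles for ESCs and squares for day 5 cells and a colour for each line. E14 day 5 cells are the lowest square in each panel, from 0.151 FPKM for Spry4 to 11.4 FPKM for Spred1, and Suz12delta day 5 cells are the highest square in 7 of the 8 panels.

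Markers of pluripotent cells and of other lineages, like the feedback targets, summed higher in each mutant than in E14 day 5 cells. The pluripotency markers Pou5f1, Nanog, Zfp42, Esrrb, Tdgf1 and Klf4 summed to 0.776, 7.65, 13.4 and 6.77 FPKM at day 5, against 350 to 720 FPKM in the ESCs. At least 2-fold higher than in E14 were 6 of 6 in Suz12GT (all genes, 16.8%), 6 of 6 in Suz12delta (all genes, 26.6%) and 4 of the 5 compared in Eednull cells (all genes, 21.6%). Nanog and Klf4 were listed at 0 in E14 and Nanog also in Eednull day 5 cells. The endoderm markers (Sox17, Gata4, Gata6, Foxa2, Afp, Ttr and Sox7) summed to 3.76, 30.1, 42.6 and 36.5 FPKM at day 5, and 7 of 7 were higher than in E14 in each mutant library, where Afp and Gata4 were listed at 0 in E14. The fibroblast markers summed to 2.89, 15.5, 115 and 60.4 FPKM and the mesoderm markers to 0.339, 1.13, 11.2 and 9.24 FPKM at day 5, with Mesp1 and Tbx6 at 0.0150 FPKM or less. Of those compared, 10 of 11 fibroblast and 2 of 3 mesoderm markers were higher than in E14 in Suz12GT cells (all genes, 16.8%). These counts were 12 of 12 and 3 of 3 in Suz12delta (all genes, 26.6%) and 11 of 12 and 3 of 3 in Eednull cells (all genes, 21.6%). The mesoderm marker T was lower in Suz12GT (0.0153 FPKM) than in E14 cells (0.104 FPKM). Between Suz12GT and Eednull cells the pluripotency and endoderm sums were thus closer than the fibroblast and mesoderm sums. The part of these cell types in the levels of the feedback targets and of Fgf5, Fgf9 and Fgf10 was not tested.

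The rest of the pathway was read from 4 lists of other genes. Among 14 other genes that ERK induces or that limit it, 7 of the 13 compared were lower (all genes, 25.8%) and 1 was higher (all genes, 18.3%) in E14 day 5 cells than in ESCs, with a median log2 ratio of -1.24. The largest falls were those of the immediate early genes Fos (127 to 0.804 FPKM) and Egr1 (60.2 to 0.734 FPKM), and the largest ratios were those of Phlda1 (1.12) and Dusp4 (0.36). Against E14 day 5, 3 of 12 of these genes were higher and 0 lower in Suz12GT, 10 of 13 higher and 1 lower in Suz12delta, and 5 of 12 higher and 1 lower in Eednull cells, beside 16.8%, 26.6% and 21.6% of all genes higher and 4.4%, 9.52% and 11.3% lower. Egr1 had the largest ratio of the list in each, at 1.49, 3.93 and 2.08, and Dusp4, an ERK phosphatase of the nucleus, was the gene that was lower in Suz12delta (-1.55) and Eednull cells (-2.23). The medians of the list were 0.63, 1.45 and 0.84.

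The adaptors and the RAS-ERK chain itself moved little over E14 differentiation. Of 17 genes compared, 0 were higher (all genes, 18.3%) and 2 lower (all genes, 25.8%) in E14 day 5 cells than in ESCs. The lower genes were the adaptors Gab1 (21.0 to 4.87 FPKM) and Shc1 (36.9 to 8.73 FPKM). Against E14 day 5, 0 of 17 were higher in Suz12GT, 3 in Suz12delta and 1 in Eednull cells, under the 16.8%, 26.6% and 21.6% of all genes, Shc1 having the largest ratio in each, at 0.80, 1.84 and 1.70. Among 8 co-receptors and ligand-binding proteins, 5 of the 7 compared were higher and 2 lower in E14 day 5 cells than in ESCs, beside 18.3% and 25.8% of all genes. Fgfbp3, a secreted carrier of FGFs, was listed at 0 in E14 ESCs, was at 11.9 FPKM in E14 day 5 cells, and was at 4.22, 0.493 and 0.378 FPKM in Suz12GT, Suz12delta and Eednull day 5 cells. Fgfbp1 had the opposite course, at 9.34 FPKM in E14 ESCs and listed at 0 in E14 day 5 cells, with 2.03 and 3.68 FPKM in Suz12delta and Eednull day 5 cells. Among 14 genes for heparan sulfate synthesis and its carrier proteins, 3 were higher and 3 lower in E14 day 5 cells than in ESCs, near the 18.3% and 25.8% of all genes. The heparan sulfate carrier Gpc3 was at 26.4 FPKM in E14 ESCs, was listed at 0 in CJ7 ESCs and in E14 day 5 cells, and was at 74.0, 103 and 96.9 FPKM in the 3 mutant day 5 libraries, so its listed 0 may not be a level. Sdc4 was at 3.85 FPKM in E14, 18.5 in Suz12delta and 18.9 in Eednull day 5 cells.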

How the data were processed

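RNA-seq was analysed in 8 libraries, 1 per condition, and the table of the whole series gave all 8 columns, each assigned from its name and the sample labels. The authors aligned reads with TopHat 1.3.2 and Bowtie 0.12.7 and deposited FPKM values per gene made with Cufflinks 1.2.1 and Cuffdiff, using Ensembl-derived gene models on NCBI build 37 and correcting for sequence bias and multiply mapped reads. Both corrections, and overlapping gene models, can move single genes. No read counts were given, and low values did not share steps of single reads (at most 2.28% of low genes shared the commonest ratio), so depth is unknown and no interval is given.

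From the FPKM values, used without rescaling, log2 ratios were taken after adding 0.1 (the pseudocount) to genes reaching 0.1 FPKM in either library, with a call at 2-fold. All 34 FGF genes were accounted for, those at 1 FPKM or more in 1 library by their level in each library. Genes of the 4 pathway lists were named by the 2 largest and 2 smallest ratios in a comparison among genes at 1 FPKM or more. Single spinal motor neuron markers, T and Col1a2 were named after their values were seen. The genes and lists were chosen with earlier results of these data known. The alternatives were CJ7 as the wild-type ESC, a pseudocount of 1 or 0.01, the minimum raised to 1 FPKM or dropped, and libraries scaled to a common 75th percentile, taken over the 17842 genes with no 0. With no replicates, a count was taken as moved when it changed by over 1.5 times, and a median when it shifted by more than that on the log2 scale or changed sign. The calling step was tested on simulated data with changes larger than the cutoff, in genes of high level only. That test therefore gives no error rate for low genes or for changes near the cutoff. Promoter windows came from a RefSeq table (GRCm38.p6) and were placed on NCBI build 37 by exact match. Gene positions are from GENCODE vM1. The work was done in Python 3.11.15 with Matplotlib 3.10.9, pandas 2.3.3 and NumPy 2.4.6.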

Additional observations from a re-analysis of the deposited data

Results flagged for a closer look

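In 4 of the FGF genes the change from ESCs to day 5 was a rise of at least 2-fold in Suz12delta cells and a fall of at least 2-fold in another line, and these differences were not tested, since each line gave 1 library at each time. For Spry1, the log2 change in Suz12delta cells exceeded that in E14 cells by 5.10 and that in Eednull cells by 2.85. For Fgf5, the excess was 4.61 over E14 and 3.75 over Eednull cells. For Fgf3, it was 2.54 over E14 and 2.10 over Eednull cells, at levels of 1.27 FPKM or less. For Fgf21, it was 4.71 over E14 cells, with both libraries of Suz12delta cells under 0.4 FPKM. Suz12delta ESCs had the lowest ESC level of Spry1, Fgf5 and Fgf3 among the 4 lines, and fibroblast markers summed to 556 FPKM in that library, beside 95.8 FPKM in E14 ESCs; their part in these differences was not tested.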

How the results depend on the processing

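Of 1332 log2 ratios of single FGF genes recomputed, 3 changed sign from a called value, all with CJ7 as the wild-type ESC. They were Etv4 in Suz12delta (-1.0) and Eednull ESCs (-0.70), and Fgf21 in Eednull ESCs (1.42), a value set by the pseudocount and no measure of fold, since CJ7 lists Fgf21 at 0. Of 94 counts of genes at least 2-fold higher or lower, 73 stayed within 1.5 times, as did 44 of 47 medians of the feedback targets, all of which kept their sign. A pseudocount of 1 FPKM, which shrinks low genes, gave medians of -2.49 over E14 differentiation, and of 1.40 in Suz12delta and 0.70 in Eednull day 5 cells against E14. Against E14 day 5 it lowered the higher counts to 7 in Suz12GT (all genes, 4.95%), 8 in Suz12delta (all genes, 11.7%) and 4 in Eednull cells (all genes, 9.11%). It left 1 lower in Suz12delta (all genes, 4.81%) and 1 in Eednull day 5 cells (all genes, 6.05%). Over differentiation it gave 7 higher in Suz12delta (all genes, 13.5%) and 4 in Eednull cells (all genes, 8.92%). It gave 3 higher (all genes, 3.97%) and 0 lower (all genes, 5.12%) in Eednull ESCs, and 1 higher (all genes, 2.1%) and 1 lower (all genes, 5.8%) in CJ7 ESCs. A pseudocount of 0.01 gave 5 lower in CJ7 ESCs (all genes, 16.4%) and 2 lower in Suz12GT day 5 cells (all genes, 5.52%). A minimum of 1 FPKM, which compares fewer genes, gave 10 higher in Suz12delta (all genes, 20.5%) and 6 in Eednull day 5 cells (all genes, 16.2%). It gave 7 higher over Suz12delta differentiation (all genes, 26%), 1 higher in CJ7 ESCs (all genes, 5.11%) and 1 lower in Eednull ESCs (all genes, 11.5%). With CJ7 as the wild-type ESC, 10 were higher (all genes, 20.5%) and 1 lower (all genes, 10.7%) in Eednull ESCs. With 75th percentile scaling 15 were lower over Suz12delta differentiation (all genes, 17.2%). The cause of these shifts was not tested. With 1 library per condition, no difference has an error estimate, no library could be left out, and values under 1 FPKM are the least certain. No paired analysis was possible because each condition has 1 library.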
